A study of Mus musculus with 9 samples.

Results

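miR-204-5p, miR-211-5p and miR-375-3p are the 3 rows, of 358 miRNAs measured in epididymosomes, whose names begin with miR-204-, miR-211- or miR-375-. The group was chosen by measured levels: miR-204-5p and miR-375-3p had been seen to decline toward the cauda in these same libraries, so their levels by segment are a description and carry no test. Epididymosomes, small membrane vesicles that the epididymal epithelium releases into the lumen, were isolated from the caput (the first segment that maturing spermatozoa meet), the corpus and the cauda, where they are stored. The mice were untreated Swiss males, inbred and aged 8 weeks in all 3 segments, and each segment was sampled by 3 small RNA libraries, 9 in all. Each library held RNA pooled from several animals, so that a replicate is a pool and not a mouse.

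A miRNA is a short RNA that guides the silencing machinery to messenger RNAs, chiefly through its seed, bases 2 to 8 counted from the 5′ end. miR-204 is best known from the retinal pigment epithelium and other secretory or transporting epithelia, where it maintains the epithelial state. miR-211 is its close relative and is best known from pigment cells. miR-375 is abundant in the hormone-secreting cells of the pancreatic islet, where it restrains insulin release, and occurs in other secretory epithelia.

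Of the 358 miRNAs, 299 matched a mature sequence in the RefSeq table for GRCm38.p6. The mature sequences of the measured miR-204 and miR-211 arms are shown because they bear on how the reads of both were counted. The seed is in capitals:
miR-204-5p: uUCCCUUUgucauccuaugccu
miR-211-5p: uUCCCUUUgucauccuuugccu
Both are 22 bases long and share 21 of them, with a single substitution, A17U, outside the seed (the base of miR-204-5p first, counted from its 5′ end). The site they recognise in a target, the reverse complement of the seed, reads AAAGGGA for both. Among the 299 miRNAs with a sequence, only these 2 carried this seed, and no other of the same length was within 5 base differences of miR-204-5p. A read of miR-204-5p in which this A was misread as U would therefore equal miR-211-5p, and the reverse change would do the opposite.

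The precursors lie at separate loci on GRCm38.p6. Mir204 spans chr19:22750605-22750672 on the plus strand, in an intron of Trpm3, a cation channel gene of the same strand. Mir211 spans chr7:64205806-64205911 on the plus strand, in an intron of the related gene Trpm1. Mir375 spans chr1:74900658-74900721 on the minus strand and lies outside protein-coding genes, 7515 bases from Cryba2 and 1350 bases from Cfap65. The hairpins are shown, as RefSeq gives them, with the 5p arm in capitals, to place the measured miR-204 and miR-211 arms in their precursors. In Mir375 the capitals mark the arm that has no row in these data, since the row analysed is miR-375-3p:
Mir204: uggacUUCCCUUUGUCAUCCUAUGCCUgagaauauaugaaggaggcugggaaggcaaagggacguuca
Mir211: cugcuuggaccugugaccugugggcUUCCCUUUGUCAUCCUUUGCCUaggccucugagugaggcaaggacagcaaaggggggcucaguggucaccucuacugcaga
Mir375: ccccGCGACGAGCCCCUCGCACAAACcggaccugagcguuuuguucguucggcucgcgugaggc
miR-204-3p, miR-211-3p and miR-375-5p were not analysed here.

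Levels are in CPM, counts per fixed number of miRNA reads of the same library. Libraries held 8274421 to 11306605 such reads in the caput, 1548581 to 6190324 in the corpus and 2001086 to 5896748 in the cauda. CPM ties each miRNA to the most abundant ones: the combined share of miR-10a-5p and miR-10b-5p ranged from 50.5% to 71.3% in the caput, from 50.3% to 53.2% in the corpus and from 33.2% to 34.5% in the cauda, and that of miR-143-3p, in the same order, 4.98% to 8.81%, 8.79% to 12.1% and 28.7% to 35.2%. Levels were therefore also scaled by TMM, which sets libraries level by their typical miRNA rather than by their total. Whether fewer vesicles carried a miRNA or each vesicle carried less of it cannot be told apart in these libraries.

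miR-204-5p was the most abundant of the 3 miRNAs in every library. In the caput it stood at 8465, 12950 and 13049 CPM in replicates 1, 2 and 3, which placed it 16th, 7th and 14th among the 358 miRNAs. In the corpus it stood at 4027, 7369 and 5934 CPM, and in the cauda at 209, 259 and 631 CPM, where its rank was 102, 103 and 73. No library of a segment overlapped with a library of another segment, and cauda replicate 3 was well above the other cauda libraries.

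The caput level of miR-204-5p averaged 11488 ± 2618 CPM (SD, n = 3), its corpus level 5777 ± 1677 CPM (SD, n = 3) and its cauda level 366 ± 231 CPM (SD, n = 3). On log2(CPM + 1) the corpus was lower than the caput by a difference of -1.01 (standard error 0.40), and the cauda was lower than the corpus by a difference of -4.11 (standard error 0.40). Over the whole length the difference was -5.11 (standard error 0.40), a 34.6-fold lower level. The 3 cauda libraries still held 418, 566 and 3721 reads of it, so that the miRNA was depleted in the cauda and not lost.

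miR-375-3p showed the same order of segments at a lower level. Its caput libraries held 1368, 1093 and 1561 CPM, its corpus libraries 507, 973 and 1089 CPM, and its cauda libraries 43.5, 63.6 and 133 CPM. Caput and corpus did not overlap, although corpus replicate 3 came close to caput replicate 2, and the cauda lay far below both. As for miR-204-5p, cauda replicate 3 was the highest cauda library.

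Caput libraries averaged 1341 ± 235 CPM of miR-375-3p (SD, n = 3), corpus libraries 857 ± 308 CPM (SD, n = 3) and cauda libraries 80.1 ± 47.0 CPM (SD, n = 3). Its log2 difference was -0.71 (standard error 0.45) from caput to corpus, which is less certain than the step from corpus to cauda, at -3.48 (standard error 0.45). From caput to cauda it was -4.19 (standard error 0.45), or 18.2-fold lower. Its rank among the 358 miRNAs moved from between 34 and 45 in the caput libraries to between 138 and 198 in the cauda libraries.

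miR-211-5p, the relative that shares the seed of miR-204-5p, was rare throughout. It was read 349, 111 and 242 times in caput replicates 1, 2 and 3. Corpus replicates gave 127, 40 and 17 reads, whereas those of the cauda gave 7, 3 and 8. These caput reads correspond to 30.9, 13.4 and 28.6 CPM, those of the corpus to 20.5, 15.7 and 11.0 CPM, and those of the cauda to 3.50, 1.37 and 1.36 CPM. The caput and corpus libraries overlapped in CPM, while every cauda library was below all others. With TMM and with median-of-ratios factors the corpus libraries lay below all caput libraries.

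Caput libraries averaged 24.3 ± 9.50 CPM of miR-211-5p (SD, n = 3) and corpus libraries 15.7 ± 4.77 CPM (SD, n = 3). Cauda libraries averaged 2.08 ± 1.23 CPM (SD, n = 3), the lowest cauda mean of the 358 miRNAs. The authors listed only miRNAs that averaged at least 10 CPM, which miR-211-5p did in the caput and corpus alone. Rarer miRNAs have no row, so this is not a rank among all those sequenced. The log2 difference of miR-211-5p was -0.55 (standard error 0.49) from caput to corpus and -3.03 (standard error 0.49) from caput to cauda. Because the cauda levels were close to the pseudocount, this scale understates the change: the means themselves differed 11.7-fold between caput and cauda, against 8.15-fold on the log scale. The exact 95% Poisson intervals of the cauda libraries ran from 1.41 to 7.21 CPM, from 0.283 to 4.01 CPM and from 0.586 to 2.67 CPM, and cauda replicate 2 held only 3 reads. These intervals cover counting error only, since reads copied during amplification were not marked as such.

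**Figure D1:**
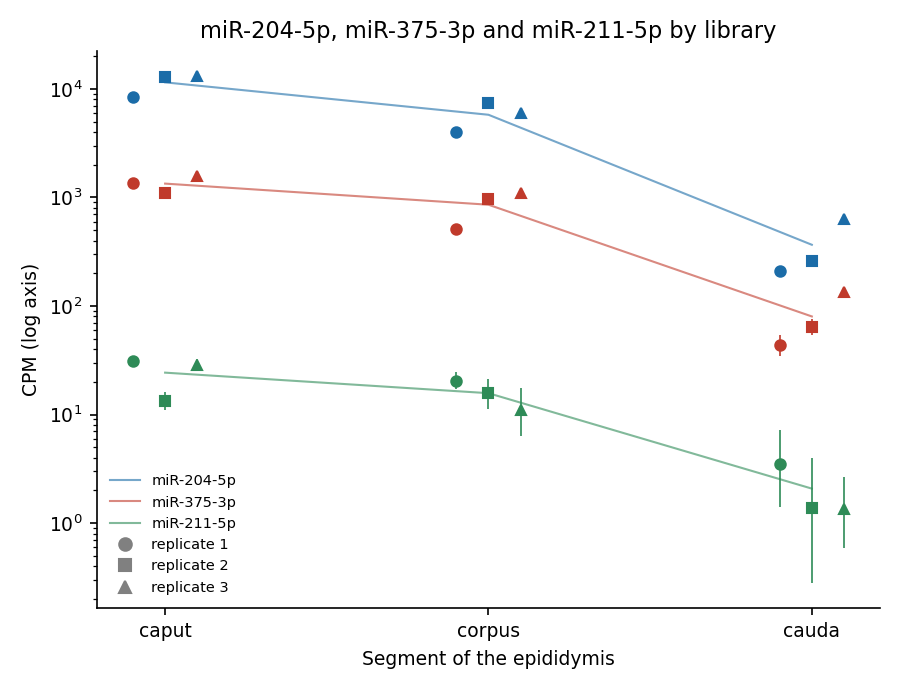
CPM (log axis) of the 3 miRNAs in each of the 9 libraries, by segment. Symbols are replicates, vertical bars are exact 95% Poisson intervals of the read count, and lines join the segment means. For each miRNA the 3 cauda libraries lie below all caput and corpus libraries, and the order miR-204-5p, miR-375-3p, miR-211-5p holds in every library.

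The comparisons were fitted with limma to all miRNAs, and a miRNA counted as changed at an adjusted p-value under 0.05 (Benjamini-Hochberg) with a fold of at least 2. From caput to cauda 171 of 349 tested miRNAs passed (49%), 36 of them lower in the cauda (10.3%) and 135 higher (38.7%). From caput to corpus 72 of 321 passed (22.4%), 61 higher (19%) and 11 lower (3.43%), and from corpus to cauda 65 of 342 (19%), 48 higher (14%) and 17 lower (4.97%). With TMM the direction of these calls moved to 84 higher and 73 lower from caput to cauda, 42 higher and 49 lower from caput to corpus, and 56 higher and 34 lower from corpus to cauda. The caput to corpus number was 46 without corpus replicate 1, and the corpus to cauda number was 41 without corpus replicate 1, 32 without corpus replicate 2, 38 without cauda replicate 1 and 39 without cauda replicate 2.

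Against this background the cauda libraries of all 3 miRNAs lay below the caput libraries without overlap, as they did for 11.7% of the tested miRNAs. The corpus and cauda libraries did not overlap for any of the 3, with the cauda lower, as for 16.1% of the tested miRNAs. For miR-204-5p and miR-375-3p the corpus libraries also lay wholly below the caput libraries, against 5.61% of the tested miRNAs. The rule rests on these levels, so nothing is read from the counts. Of all 358 log2 differences from caput to cauda, that of miR-204-5p was the lowest, that of miR-375-3p the second lowest and that of miR-211-5p the fourth lowest, or the fifth lowest with TMM or median-of-ratios factors.

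The size of the decline depended on the scaling, and its direction did not under TMM or median-of-ratios factors. With CPM the median log2 difference of all tested miRNAs was 0.81 from caput to cauda, and with TMM it was 0.07. Relative to this median miR-204-5p was lower by a log2 difference of -5.92 with CPM and -5.86 with TMM, miR-375-3p by -5.0 and -4.93, and miR-211-5p by -3.84 and -3.64. Without that correction the TMM folds were 55.3 for miR-204-5p, 29.1 for miR-375-3p and 11.9 for miR-211-5p. TMM also set caput replicate 2, the library with the largest share of miR-10a-5p and miR-10b-5p, apart from the others, with 27104 TMM-scaled CPM of miR-204-5p against 11235 and 11207 in caput replicates 1 and 3.

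Most of the decline lay between corpus and cauda. This step held 80.3% of the log2 difference from caput to cauda for miR-204-5p, 83.2% for miR-375-3p and 81.7% for miR-211-5p, and with TMM it held 72.6%, 73.6% and 69.2%. The 5 other miRNAs with the largest fall from caput to cauda, chosen as those that passed the test with no overlap of libraries, were miR-146b-5p, miR-9-5p, miR-138-5p, miR-671-3p and miR-467d-5p. For these the second step held 35.6%, 13%, 31.7%, 13.7% and 41.6% of the log2 difference, and between 13.1% and 34.9% with TMM. The difference in timing between the groups is a description, since all 8 miRNAs were taken for their decline. A larger second step was not particular to miR-204-5p, miR-375-3p and miR-211-5p. The log2 difference of miR-125a-5p was -0.33 in the first step and -1.23 in the second. For miR-148a-3p it was -0.33 and -1.30.

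miR-146b-5p, a miRNA of inflammatory signalling, fell from 4426 CPM in the caput to 771 CPM in the corpus and 293 CPM in the cauda. Its log2 difference was -2.44 (standard error 0.40, adjusted p = 0.00049 by limma with Benjamini-Hochberg adjustment) in the first step. In the second it was -1.35 (standard error 0.40, adjusted p = 0.029 by the same test), a call that was lost with limma-voom and without corpus replicate 2, cauda replicate 1 or cauda replicate 2. miR-9-5p, a miRNA of neurons, went from 249 CPM to 38.4 CPM in the first step (log2 difference -2.61, standard error 0.47, adjusted p = 0.0011 by limma with Benjamini-Hochberg adjustment) and then to 31.9 CPM, a difference of -0.39 (standard error 0.47) that did not pass. Set beside these, miR-204-5p held 5777 of its 11488 CPM in the corpus and miR-375-3p 857 of its 1341 CPM.

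**Figure D2:**
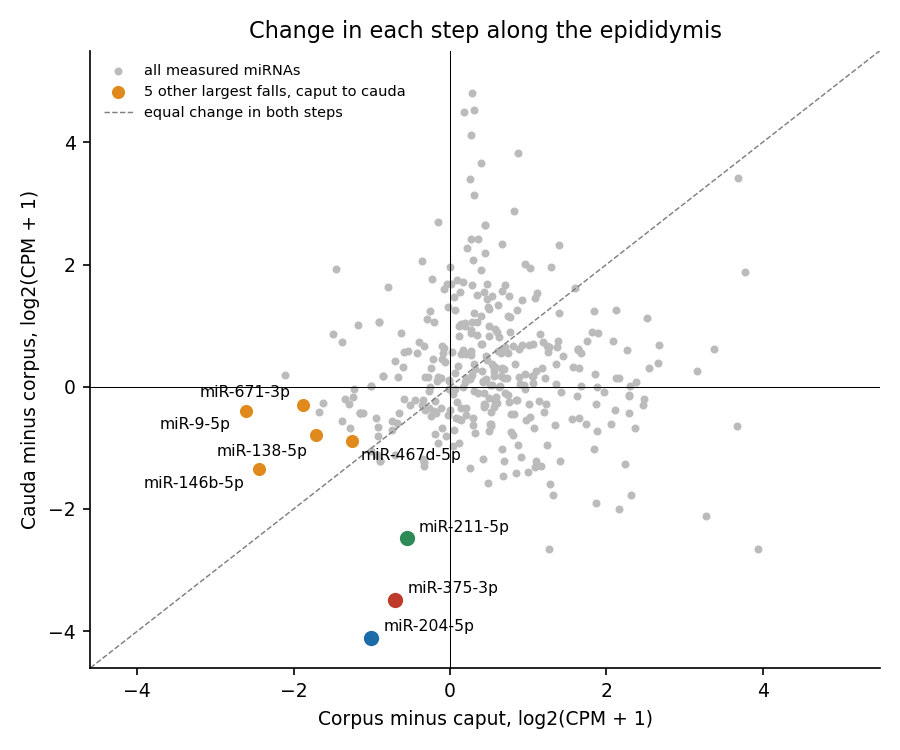
Log2(CPM + 1) difference from caput to corpus (horizontal axis) and from corpus to cauda (vertical axis) for each of the 358 miRNAs (grey). The 3 miRNAs lie below the dashed line of equal change, at -4.11, -3.48 and -2.47 on the vertical axis for miR-204-5p, miR-375-3p and miR-211-5p, whereas the 5 other miRNAs with the largest fall (orange) lie above it. Some grey points also lie below the line with both differences negative, such as miR-148a-3p at -0.33 and -1.30.

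Ratios within a library do not depend on how the libraries are scaled. miR-204-5p had 6.19, 11.8 and 8.36 reads for each read of miR-375-3p in the caput libraries, 7.94, 7.57 and 5.45 in the corpus libraries, and 4.80, 4.07 and 4.74 in the cauda libraries. The mean was 8.80 ± 2.86 (SD, n = 3) in the caput, 6.99 ± 1.34 (SD, n = 3) in the corpus and 4.54 ± 0.41 (SD, n = 3) in the cauda. Caput and corpus overlapped, and every cauda library was below the libraries of both other segments. miR-204-5p thus declined by more than miR-375-3p, with a spread in the caput (SD) that was wider than the gap between neighbouring segments. In cauda replicate 3 both miRNAs were raised by similar factors over the other cauda libraries, and their ratio there was inside the range of the other libraries of that segment.

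miR-211-5p made up 0.363%, 0.103% and 0.219% of the reads of miR-204-5p and miR-211-5p together in the caput libraries, 0.507%, 0.212% and 0.185% in the corpus libraries, and 1.65%, 0.527% and 0.215% in the cauda libraries. The 3 segments overlapped, and a difference in the share between them was not tested. The mean share was 0.229% ± 0.130% (SD, n = 3) in the caput and 0.301% ± 0.179% (SD, n = 3) in the corpus. In the cauda it was 0.796% ± 0.753% (SD, n = 3). The exact (Clopper-Pearson) 95% interval of cauda replicate 1 was 0.665% to 3.36% of 425 reads, and that of cauda replicate 2 was 0.109% to 1.53% of 569 reads. Whether some reads counted for miR-211-5p came from miR-204-5p, from which it differs by A17U alone, was not tested. Counting that allows a mismatch would let them mix.

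**Figure D3:**
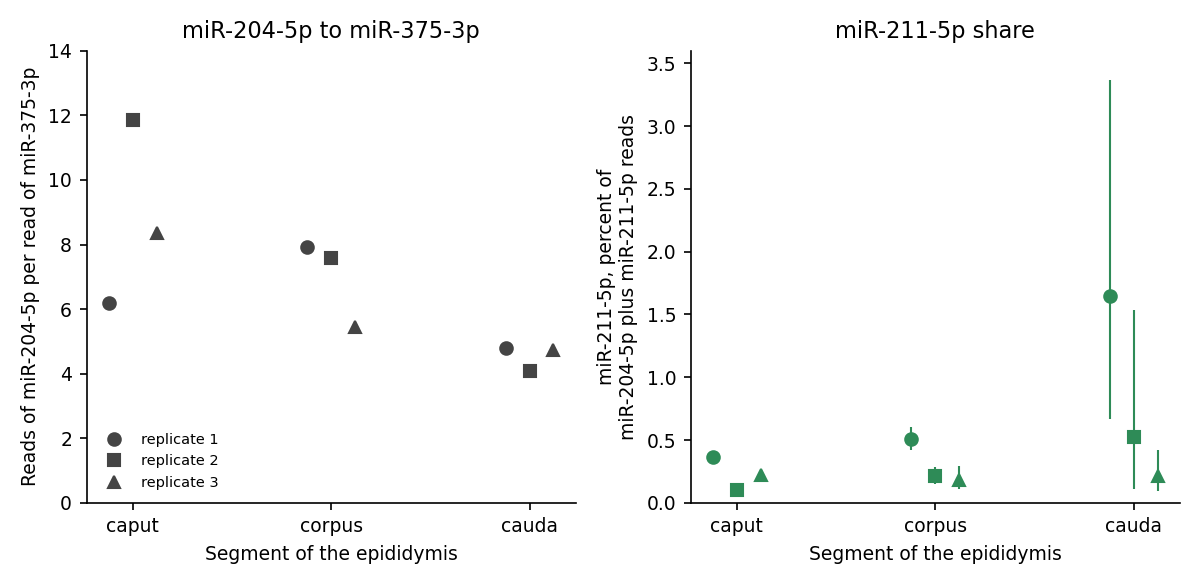
Reads of miR-204-5p per read of miR-375-3p (left) and the percentage of miR-211-5p among the reads of miR-204-5p and miR-211-5p (right) in each library, by segment. Symbols are replicates, and the bars on the right are exact 95% binomial intervals, smaller than the symbol where none is seen. The cauda ratios, 4.07 to 4.80, lie below those of all other libraries, and the shares of miR-211-5p overlap between segments.

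The miRNAs nearest to each of the 3 in caput abundance had smaller differences from caput to cauda, though not in every single step. The pair next above miR-204-5p in mean caput CPM was miR-27b-3p and let-7c-5p, and the pair next below was let-7f-5p and miR-181c-5p. Their log2 differences from caput to cauda were 0.17, -0.26, 0.32 and 0.51, with adjusted p-values of 0.184 to 0.627 (limma, Benjamini-Hochberg). Around miR-375-3p, miR-199b-3p rose from 1360 to 4743 CPM (log2 difference 1.93, standard error 0.39, adjusted p = 0.00087 by limma with Benjamini-Hochberg adjustment) and miR-16-5p from 1353 to 3222 CPM, the latter a call that was lost with TMM, with median-of-ratios factors and without caput replicate 2. The differences of the other two, miR-200c-3p and miR-192-5p, were 0.24 and -0.65 and did not pass, although miR-192-5p was called lower with TMM and median-of-ratios factors. From caput to corpus miR-192-5p fell by 1.39 on the log2 scale (adjusted p = 0.0074 by limma with Benjamini-Hochberg adjustment). Around miR-211-5p, miR-99a-3p, miR-7033-5p, miR-181a-1-3p and miR-99b-3p had differences of 0.63, 1.28, 0.90 and -0.09, which did not pass; the first 3 passed as higher without caput replicate 3 and miR-7033-5p also with the replicate number as a block. miR-7033-5p rose from 24.6 to 390 CPM in the first step and fell to 61.8 CPM in the second, with log2 differences of 3.94 and -2.66 (adjusted p = 0.0013 and 0.016 by limma with Benjamini-Hochberg adjustment). Its call in the second step was lost without corpus replicate 2, cauda replicate 1 or cauda replicate 2.

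The miRNA whose profile was most like that of miR-204-5p was miR-375-3p, and the reverse also held, with a Pearson correlation of log2(CPM + 1) of 0.990 over the 9 libraries. With TMM it was 0.994. The libraries fall into 3 segments and share their scaling, so the coefficient mainly restates that both decline in the same order. Next to miR-204-5p came miR-125a-5p (0.961), miR-10b-5p (0.936), miR-148a-5p (0.913) and miR-351-5p (0.911). Next to miR-375-3p came miR-125a-5p (0.960), miR-148a-3p (0.934), miR-351-5p (0.933) and miR-10b-5p (0.914).

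The differences of these neighbours were smaller than those of miR-204-5p and miR-375-3p. miR-125a-5p fell from 3711 CPM in the caput to 2944 CPM in the corpus and 1321 CPM in the cauda, a log2 difference from caput to cauda of -1.57 (standard error 0.34, adjusted p = 0.0015 by limma with Benjamini-Hochberg adjustment). miR-351-5p fell by 1.53 over the same length on the log2 scale, from 241 to 86.1 CPM, a call that was lost without cauda replicate 1. The place of miR-10b-5p, whose level sets the scale of CPM, dropped to 24th and 27th with TMM. Without caput replicate 2 only 2 of the 5 miRNAs nearest to miR-204-5p, and 3 of the 5 nearest to miR-375-3p, were again among the nearest 5.

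miR-211-5p was most like miR-467a-5p and miR-467b-5p, each at 0.927, whose values were identical in every library and which the counting may not have separated. They were followed by miR-148a-3p (0.907), miR-99b-5p (0.890) and miR-204-5p (0.889). With TMM 3 of these 5 remained among the nearest 5: miR-148a-3p came first (0.953), miR-204-5p was 10th and miR-99b-5p 24th. Its correlation with miR-375-3p was 0.882. In cauda replicate 3, where miR-204-5p and miR-375-3p were highest among cauda libraries, miR-211-5p was at 1.36 CPM from 8 reads. Cauda replicate 2 held 1.37 CPM of it from 3 reads, so the order of these libraries is within counting error.

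Other miRNAs known from the same tissues were described by their counts, without a test of each list. Of 11 miRNAs of islet and endocrine cells other than miR-375, 8 were measured. Between caput and cauda miR-9-5p and miR-148a-3p fell and miR-184-3p rose, whereas the other 5 did not pass, against 49% of all tested miRNAs that passed in either direction. The median log2 difference of the 8 was 0.78, beside 0.81 over all tested miRNAs. The number higher was 2 without caput replicate 1 or cauda replicate 1 and 4 without caput replicate 3, by the addition of miR-29a-3p in each case and of miR-24-3p and miR-127-3p in the last.

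miR-148a-3p, an abundant miRNA of secretory epithelia, fell from 43757 CPM in the caput to 33010 CPM in the corpus and 13581 CPM in the cauda. It was called in the second step (log2 difference -1.30, standard error 0.28, adjusted p = 0.0038 by limma with Benjamini-Hochberg adjustment) and not in the first (-0.33, standard error 0.28). miR-184-3p, best known from the lens and cornea, rose from 3.80 CPM in the caput to 51.3 CPM in the corpus and 95.2 CPM in the cauda, opposite to miR-204-5p. Its log2 difference from caput to cauda was 4.01 (standard error 0.55, adjusted p = 2.9e-05 by limma with Benjamini-Hochberg adjustment).

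Of 7 miRNAs of the retina and its pigment epithelium other than miR-204 and miR-211, 6 were measured. Between caput and cauda miR-182-5p, miR-183-5p and miR-9-5p fell and miR-184-3p rose, in the direction given also with TMM, while miR-96-5p and miR-125b-5p did not pass. Of all tested miRNAs 10.3% passed as lower and 38.7% as higher. The median log2 difference of the 6 was -0.82, beside 0.81 over all tested miRNAs. miR-182-5p and miR-183-5p, made from a cluster that is known from sensory cells, fell by 1.73 (standard error 0.27) and 1.44 (standard error 0.34) on the log2 scale, with adjusted p-values of 0.00012 and 0.0024 by limma with Benjamini-Hochberg adjustment. For miR-96-5p, of the same cluster, the difference was -0.11 (standard error 0.50), from 153 to 137 CPM. miR-182-5p stood at 13075 CPM in the caput, 6769 CPM in the corpus and 3867 CPM in the cauda. It thus started near the level of miR-204-5p and stood far above it in the cauda.

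As a group, the general miRNAs of epithelium did not decline with miR-204-5p and miR-375-3p on the CPM scale. Their median was nevertheless below that of all tested miRNAs. All 7 were measured, among them the miR-200 family, which keeps cells epithelial by repressing the factors ZEB1 and ZEB2. Between caput and cauda 1 of them, miR-141-3p, was called higher, at 17882 against 40435 CPM, and the other 6 had log2 differences of -0.50 to 0.79, where 38.7% of all tested miRNAs passed as higher and 10.3% as lower. With TMM and with median-of-ratios factors miR-141-3p did not pass and 2 miRNAs, miR-200b-3p and miR-203-3p, were called lower. Of all tested miRNAs, 73 of 350 passed as lower with TMM and 73 of 346 with median-of-ratios factors. The direction of this group thus rests on the scaling. The median log2 difference of the 7 from caput to cauda was 0.24 with CPM, beside 0.81 over all tested miRNAs. With TMM it was -0.44, beside 0.07. Relative to the typical miRNA the group was therefore reduced under both scalings. The TMM log2 differences of miR-200b-3p and miR-203-3p, -1.18 and -1.09, were small beside -5.79 for miR-204-5p and -4.86 for miR-375-3p. miR-200a-3p was called higher without caput replicate 3.

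**Figure D4:**
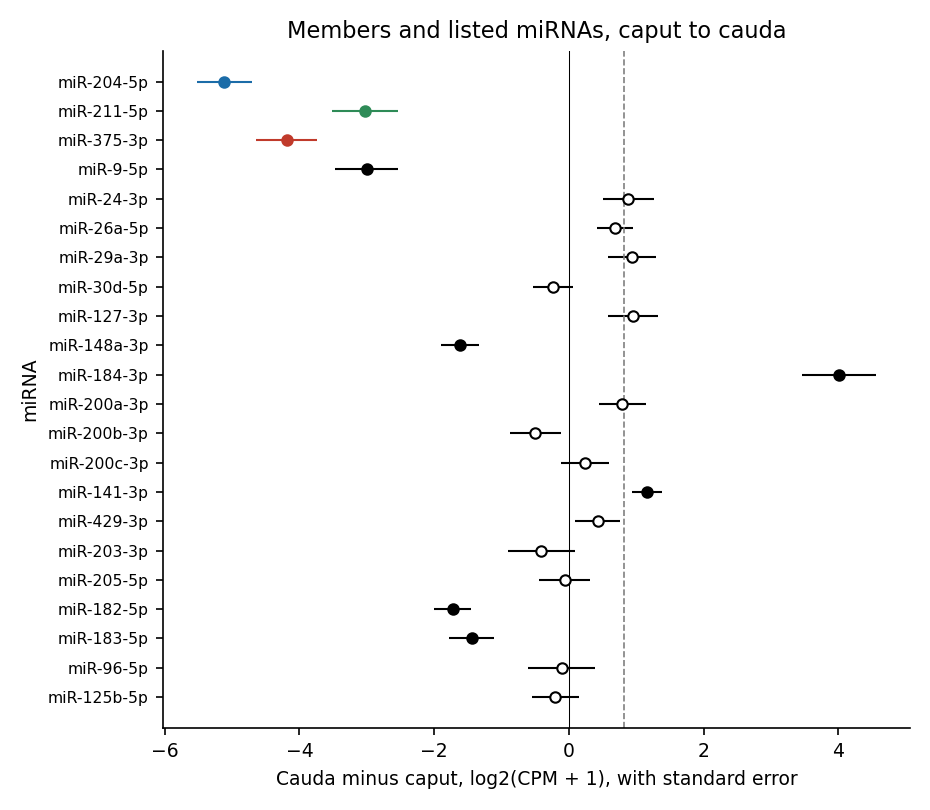
Log2(CPM + 1) difference of cauda minus caput with its standard error for miR-204-5p, miR-211-5p and miR-375-3p (coloured, not tested) and for the measured miRNAs of the islet, epithelial and retinal lists, each drawn once. Filled black points passed the limma test, open points did not, and the dashed line is the median of all tested miRNAs, 0.81. The coloured points lie at -5.11, -3.03 and -4.19, and only miR-9-5p among the listed miRNAs lies near them.

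The study perfused the vasculature, separated the vesicles on a density gradient and probed them by immunoblot for haemoglobin and a protein of cytoplasmic droplets. In the libraries, most miRNAs known as markers of other cells were higher in the cauda. From caput to cauda 4 of 4 smooth muscle, 4 of 4 striated muscle, 4 of 4 red blood cell, 3 of 5 leukocyte, 11 of 11 germ cell and 1 of 3 mesenchymal miRNAs passed as higher (background 38.7%). With TMM 2, 4, 2, 3, 6 and 1 of them did, where 84 of 350 tested miRNAs passed as higher. The summed level of 4 smooth muscle miRNAs was 50115 to 88995 CPM in the caput, 88423 to 121412 CPM in the corpus and 291676 to 354786 CPM in the cauda. Of 7 striated muscle miRNAs 4 were measured, and their sum was 55.5 to 197 CPM in the caput, 121 to 167 CPM in the corpus and 1403 to 4146 CPM in the cauda. The sum of 4 of 5 red blood cell miRNAs was 223 to 848, 389 to 1104 and 3019 to 4348 CPM in the same order, that of 11 of 12 germ cell miRNAs 358 to 1049, 993 to 1175 and 2190 to 2528 CPM, and that of 3 mesenchymal miRNAs 907 to 2729, 3077 to 4446 and 4113 to 6372 CPM. Among the red blood cell miRNAs, miR-486a-5p and miR-486b-5p had nearly the same values (1749 and 1743 CPM in the cauda), and the counting may not have separated them. From corpus to cauda miR-451a went from 197 to 196 CPM, and neither it nor miR-144-3p passed in that step. Only the sum of the 5 leukocyte miRNAs overlapped between all segments, at 231 to 530, 515 to 1149 and 392 to 1601 CPM. No measured marker was at 0 in all libraries of a segment.

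Cauda replicate 3, the cauda library with the most miR-204-5p and miR-375-3p, had the lowest sums of smooth and striated muscle miRNAs of the cauda libraries, 291676 and 1403 CPM, and the highest leukocyte sum, 1601 CPM. The part of these other cells in the levels of the 3 miRNAs was not tested. Without cauda replicate 3 the log2 difference from caput to cauda was -5.59 for miR-204-5p and -4.63 for miR-375-3p, and without cauda replicate 1 it was -4.80 and -3.83.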

How the data were processed

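Small RNA of epididymosomes was sequenced by the authors on an Illumina HiSeq-2000 (base calls with CASAVA 1.8.2), screened for contaminants with cutadapt and bowtie (1.1.1 per the labels), assigned to known mature miRNAs by miRDeep2, and scaled by library size. They deposited CPM values for 358 miRNAs in 9 libraries, after a detection threshold of 10 CPM. The genome build and miRBase release are not given in the sources used here.

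The value of 1 read was found in each library from the CPM steps, and 100% of values came out as whole reads (tolerance 0.1 read). Few values are low enough for a strict check of this step, so read numbers and their intervals rest on this estimate. A level of 10 CPM stood for 15.5 to 113 reads. The segment and replicate of each library came from the labels. Segments were compared on log2(CPM + 1) by limma (3.58 in R 4.3, trended eBayes), in 1 model of the 9 libraries with a term for segment alone. miRNAs averaging 10 CPM or more in either segment were tested. The test was also run on simulated data in which the most abundant miRNAs did not change. That run therefore does not bear on the shift in miR-10a-5p, miR-10b-5p and miR-143-3p seen here. The p-values measure the spread between pools. The members and lists were chosen with earlier results of these data known. Named are the members, the listed miRNAs, the 5 with the most similar profile (at least 10 CPM on average), the 2 next above and below in caput level, the 5 other largest falls and the 3 most abundant. No test was applied to the members, and no column was left out. Sequences and positions are from RefSeq and GENCODE for GRCm38, read with pandas 2.3 in Python 3.11; matplotlib 3.10 drew the plots.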

Additional observations from a re-analysis of the deposited data

How the results depend on the processing

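The log2 differences of miR-204-5p, miR-375-3p and miR-211-5p kept their sign in all 3 comparisons under the 18 alternatives run. With TMM and with median-of-ratios factors the caput to cauda difference was -5.79 and -5.84 for miR-204-5p and -4.86 and -4.91 for miR-375-3p, and the caput to corpus difference was -1.58 and -1.53 for miR-204-5p and -1.28 and -1.23 for miR-375-3p; both factors are set by the bulk of the miRNAs. miR-211-5p ranged from -3.60 to -1.47 between caput and cauda, the latter with a pseudocount of 10 CPM, since its cauda level is limited by 3 to 8 reads a library. With 1 library left out the number of changed miRNAs was 132 to 202 from caput to cauda, 46 to 102 from caput to corpus and 32 to 83 from corpus to cauda. limma-voom on the reads, added after the data were seen, called 172, 71 and 46. With the replicate number as a block limma called 180, 83 and 73. Whether libraries of the same number share animals was not settled by these values. The correlation of same-numbered deviations was -0.02 to 0.44 for caput and corpus. It was -0.17 to 0.13 for caput and cauda and -0.21 to 0.22 for corpus and cauda. Between caput and corpus, numbers 1 and 2 correlated best with their own number (0.44 and 0.40), and number 3 did not (-0.02). Of 324 counts of list members called, 302 stayed within 1.5 times. The alternative of edgeR's quasi-likelihood test was not run, because the recovered reads did not pass a stricter check of the CPM steps; limma-voom was run on them in its place.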
